A study of Homo sapiens with 9 samples.

Results

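Glucuronidation, glutathione conjugation and drug efflux are carried out in the gut epithelium by a set of enzymes and membrane pumps, and 41 genes of this set were followed here. They were listed by name, and each was read from the brightest probe set that the array annotation gives to that gene alone. Such a probe set was used for 37 of the 41 genes, out of 19775 genes in all, and UGT2B7, NR1I2, SLC22A18 and SLC16A1 were not analysed here. The cells were HT29, an established human line derived from a colon cancer. They were incubated for 24 h with instant caffeinated coffee (ICC) at 7 µg/mL, incubated for 24 h with caffeic acid (CA), a phenolic acid found in coffee, at 1.68 µg/mL, or left without treatment (Control). Each group had 3 Affymetrix arrays, 9 in all, with replicate numbers 1 to 3 in each group. All groups were the same line, and whether the replicates came from separate cultures is not stated in the labels, so a p-value here reflects no more than array-to-array spread, possibly technical.

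In the first step of this chemistry transferases join a small molecule to glucuronic acid, glutathione, sulfate, an acetyl group or a methyl group. Glucuronic acid, glutathione and sulfate make it more soluble in water. Transporters of the ABC family then export the product with energy from ATP. Phenols such as caffeic acid are themselves substrates of such enzymes, and several of the genes are known targets of the aryl hydrocarbon receptor, which binds planar aromatic compounds, or of NRF2, which responds to electrophiles.

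Values are log2 of the deposited intensity. The median probe set stood at 5.49 log2 and the lower and upper quartiles at 4.15 and 7.61, and correlations between arrays across genes lay between 0.995 and 0.998. Because the brightness of a probe set depends on its probes, levels of different genes were not compared. They are placed against the quartiles only to show where the signal was dim. Of the colon epithelial markers listed, 8 of 12 lay above the upper quartile, among them EPCAM, with means of 13.14 log2 in ICC arrays, 13.14 in CA arrays and 13.06 in Control arrays, while CDH17 and GPA33 lay below the median. Of 10 measured markers of blood, vessel, connective tissue, muscle and liver cells 0 lay above the upper quartile and 6 lay below the median. Among the 6 was PTPRC, the leukocyte marker CD45, which stood at 3.62 in ICC, 3.63 in CA and 3.71 in Control. The others lay between the median and the upper quartile, among them COL1A1, at 7.38 in ICC, 7.24 in CA and 7.11 in Control.

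In neither treatment did a conjugation or transport gene pass the test. At a threshold of 0.05 after Benjamini-Hochberg adjustment over all genes, limma called 0 of the 37 for ICC against Control, 0 for CA against Control and 0 for the direct comparison of ICC with CA, and 0% of all genes in each. The smallest adjusted p of limma among the 37 was 0.539 for ICC, 0.996 for CA and 1.00 for ICC against CA. With the replicate number as a block it also called 0 of the 37, where 0% of all genes were called for ICC, 0.0152% for CA and 0.00506% for ICC against CA. The differences were small, as were those of all genes. In ICC against Control 35 of 37 lay within 0.2 log2 (1.15-fold) of 0, in CA against Control 32 and in ICC against CA all 37. Their median size, sign aside, was 0.067 log2 in ICC against Control, where that of all genes was 0.078. In CA against Control it was 0.076, against 0.066 for all genes, and in ICC against CA 0.056, against 0.062. The half-width of the 95% interval of a difference had a median of 0.198 log2 and ran from 0.151 to 0.684. These intervals are not adjusted for the number of genes.

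The median difference of the 37 genes was 0.0034 log2 in ICC against Control, where that of all genes was 0.028. In CA against Control it was -0.034, against 0.0027 for all genes, and in ICC against CA it was 0.035, against 0.024. Above 0 lay 20 genes in ICC against Control (54.1%, where 60.2% of all genes did), 16 in CA against Control (43.2%, where 51.4% did) and 26 in ICC against CA (70.3%, where 60.6% did). At an unadjusted p under 0.05 there were 5 of 37 genes in ICC against Control, 4 higher (5.83% of all genes) and 1 lower (1.9%). With the replicate block the count was also 5, 4 higher (8.41%) and 1 lower (3.99%). For CA the count was 3, 2 higher (2.55%) and 1 lower (1.91%), and with the block 6, 2 higher (4.04%) and 4 lower (4.5%). For ICC against CA it was 1, higher (2.19%), and with the block 2, both higher (4.63%). Single arrays moved these counts. In ICC against Control the 5 became 2 without Control replicate 3 or ICC replicate 1 and 3 without ICC replicate 2, in CA against Control the 3 became 6 without CA replicate 3, and in ICC against CA the 1 became 0 without ICC replicate 1 and 2 without ICC replicate 2. Both treatments were set against the same 3 Control arrays.

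**Figure D1:**
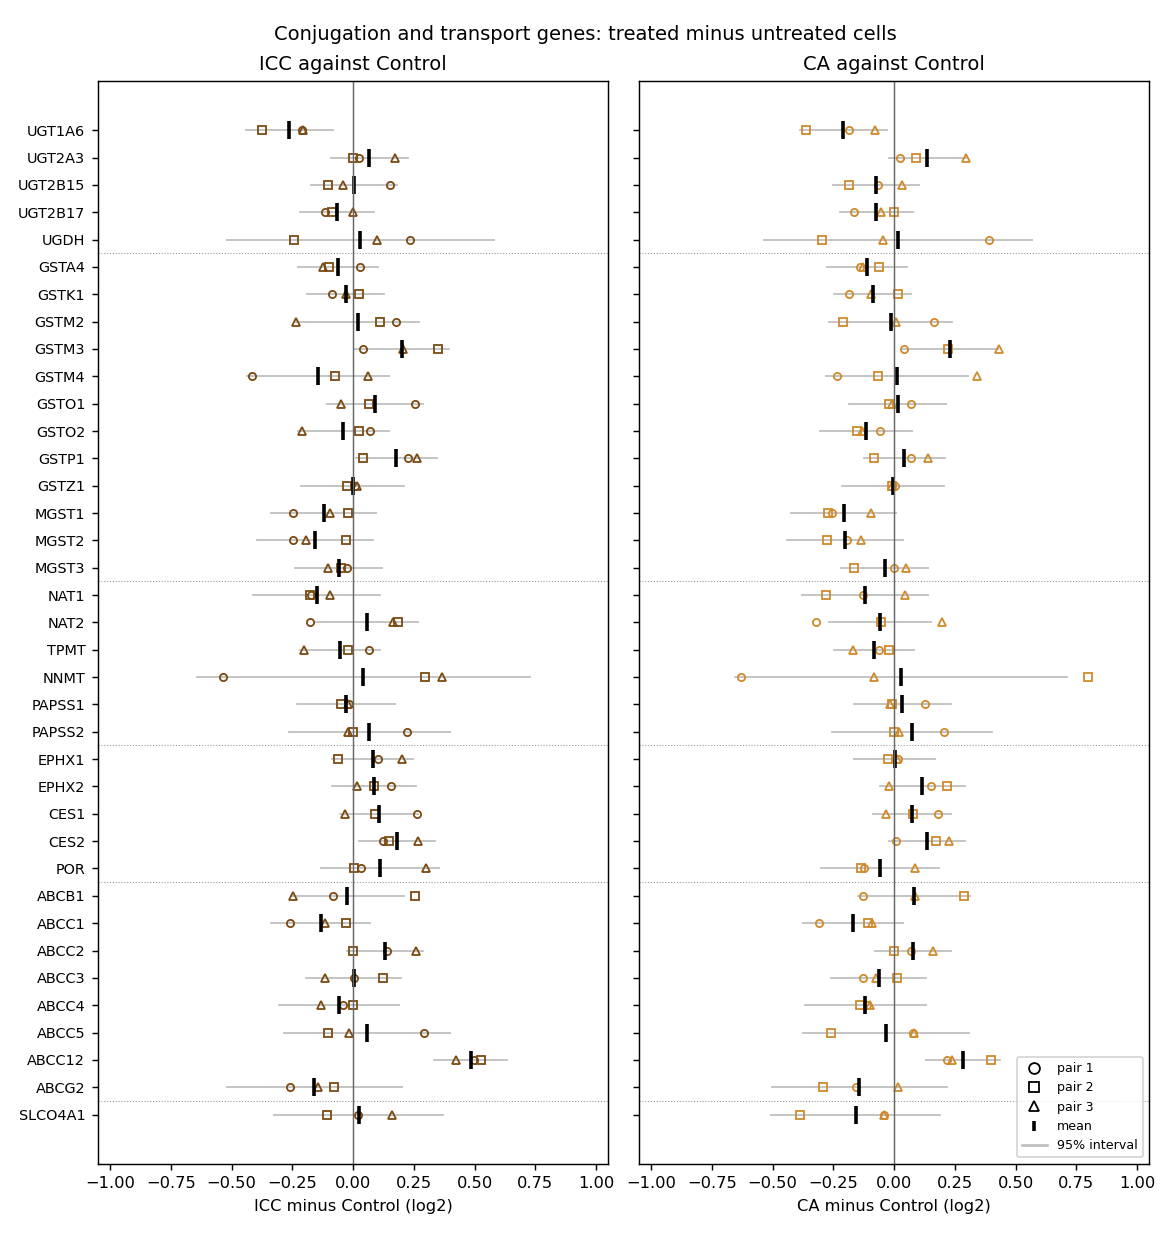
Differences of 37 conjugation and transport genes from untreated cells on the log2 scale, ICC minus Control on the left and CA minus Control on the right, with open symbols for the 3 same-numbered pairs, a bar for the mean and a grey line for the 95% interval of limma. Dotted lines separate glucuronidation, glutathione transferases, acetyl, methyl and sulfate enzymes, hydrolases with POR, ABC transporters and SLCO4A1, and ABCC12 stands farthest from 0 in both panels, at 0.48 and 0.28.

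The arrays of ICC and Control did not overlap in 4 of the 37 genes, of which ABCC12, CES2 and GSTP1 lay higher (8.46% of all genes) and UGT1A6 lower (3.5%). In CA against Control they did not overlap in 4 either, of which ABCC12, CES2 and GSTM3 lay higher (4.4%) and UGT1A6 lower (3.46%). The 250 bases before the annotated start of the first 4 are shown because these genes had their ICC arrays apart from Control, from RefSeq on GRCh38.p14, 5′ to 3′ on the gene's strand. Capitals mark the core of the site bound by the aryl hydrocarbon receptor, GCGTG, and that of the antioxidant response element bound by NRF2, TGACNNNGC, each searched on both strands.
UGT1A6, chr2:233691452-233691701, plus strand: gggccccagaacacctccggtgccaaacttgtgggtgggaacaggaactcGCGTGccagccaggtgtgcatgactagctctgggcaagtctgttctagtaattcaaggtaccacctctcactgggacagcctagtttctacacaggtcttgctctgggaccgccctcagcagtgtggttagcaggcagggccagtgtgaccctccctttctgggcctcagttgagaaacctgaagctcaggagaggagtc
CES2, chr16:66934221-66934470, plus strand: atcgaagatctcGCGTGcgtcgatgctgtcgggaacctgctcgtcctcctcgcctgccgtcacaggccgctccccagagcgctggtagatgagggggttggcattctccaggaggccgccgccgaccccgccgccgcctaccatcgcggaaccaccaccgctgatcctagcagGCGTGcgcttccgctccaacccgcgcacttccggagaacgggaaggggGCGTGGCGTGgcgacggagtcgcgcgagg
GSTP1, chr11:67583562-67583811, plus strand: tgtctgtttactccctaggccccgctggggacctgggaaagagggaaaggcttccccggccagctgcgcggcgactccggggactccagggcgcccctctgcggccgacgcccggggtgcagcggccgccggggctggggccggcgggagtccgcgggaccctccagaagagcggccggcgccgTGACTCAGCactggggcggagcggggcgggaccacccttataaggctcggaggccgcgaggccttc
ABCC12, chr16:48155994-48156243, minus strand: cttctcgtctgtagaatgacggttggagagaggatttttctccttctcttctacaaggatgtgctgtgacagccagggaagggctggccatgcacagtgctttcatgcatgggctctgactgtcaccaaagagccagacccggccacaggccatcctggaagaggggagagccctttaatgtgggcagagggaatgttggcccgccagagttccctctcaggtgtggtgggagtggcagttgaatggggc

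UGT1A6 held the first core once, 200 to 196 bases before its start. CES2 held it 4 times, and a pair of these follow each other directly at 29 to 25 and 24 to 20 bases. GSTP1 held the second core once, 66 to 58 bases before its start, and neither was found in the ABCC12 window. Some genes have further annotated starts, whose windows are not shown. That of UGT1A6 held the second core once and lacked the first, and that of CES2 lacked both. Of 35116 promoter windows of this length in the table, 32.2% held the first core and 10.9% the second, and of the 40 windows of the 25 measured genes that matched the table, 14 held the first and 6 the second. The 2 cores do not overlap in the windows shown. A match says only that these letters are present.

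Glucuronidation was represented by 5 measured genes. UGT1A6, which conjugates small planar phenols and is a known target of the aryl hydrocarbon receptor, was at 7.51, 7.34 and 7.48 log2 in ICC, at 7.53, 7.36 and 7.60 in CA and at 7.72, 7.72 and 7.68 in Control. Every treated array lay below every Control array, and the Control arrays lay close together. The difference was -0.26 ± 0.081 log2 in ICC against Control (SE, n = 3 arrays in each group, limma, adjusted p 0.614, with the replicate block 0.317), with -0.21, -0.37 and -0.21 in the 3 pairs. In CA against Control it was -0.21 ± 0.081 (limma, adjusted p 0.996), with -0.19, -0.36 and -0.079 in the pairs and a value of -0.14 without CA replicate 2. ICC differed from CA by -0.054 ± 0.081, with a 95% interval from -0.23 to 0.12. The test called neither difference from Control, and in such bulk samples fewer cells of a kind and less RNA per cell cannot be told apart.

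The UGT1A genes share their last exons, and 5 probe sets are listed for UGT1A6 together with other UGT1A genes. These were not assigned to a gene. All 5 lay below Control, between -0.19 and -0.053 log2 in ICC and between -0.19 and -0.046 in CA, and none passed (limma, smallest adjusted p 0.761 and 0.990). The probe set named for UGT1A6 alone gave a larger estimate, with an SE of 0.081 log2 where the shared ones had 0.16 to 0.18. Whether it differed from them was not tested, and its own type (suffix _s_at) can match several transcripts.

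UGDH makes UDP-glucuronic acid, the donor for all of these transferases. It was at 9.94, 10.45 and 10.63 log2 in ICC, at 10.10, 10.40 and 10.49 in CA and at 9.70, 10.69 and 10.54 in Control. The array with replicate number 1 was the lowest of each group, by far more than the groups differed, and the difference was 0.030 ± 0.25 in ICC against Control and 0.017 ± 0.25 in CA against Control (limma, SE). The transferases of the UGT2 family were dim. UGT2B17, which conjugates androgens, was at 3.19, 3.08 and 3.17 log2 in ICC, at 3.14, 3.17 and 3.11 in CA and at 3.30, 3.17 and 3.17 in Control, below the lower quartile throughout. UGT2B15, a close paralogue, averaged 4.27 in ICC cells, 4.20 in CA cells and 4.27 in Control cells, near the lower quartile. UGT2A3 was at 3.33 in all 3 ICC arrays, with exactly the same value in each, at 3.33, 3.42 and 3.45 in CA and at 3.30, 3.33 and 3.16 in Control. Exactly equal values on at least 2 arrays occurred in 13 of the 37 genes and in 49.4% of all genes.

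The 12 glutathione transferases had a median of -0.035 log2 in ICC against Control, with 4 above 0 and 8 below. In CA against Control it was -0.026, also with 4 above and 8 below. Of all genes 60.2% and 51.4% lay above 0. GSTP1, the pi-class enzyme that is abundant in many tumours, was at 12.33, 12.19 and 12.23 log2 in ICC, at 12.18, 12.07 and 12.10 in CA and at 12.11, 12.15 and 11.97 in Control. Its ICC arrays lay above all CA and all Control arrays, while CA and Control overlapped. The difference was 0.18 ± 0.076 in ICC against Control (limma, adjusted p 0.635, higher in 3 of 3 pairs), 0.043 ± 0.076 in CA against Control (adjusted p 1.00) and 0.13 ± 0.076 in ICC against CA (adjusted p 1.00, higher in 3 of 3 pairs, by 0.16, 0.12 and 0.13).

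GSTM3, a mu-class enzyme, was at 4.94, 5.11 and 4.89 log2 in ICC, at 4.94, 4.98 and 5.12 in CA and at 4.90, 4.76 and 4.69 in Control. The CA arrays lay above Control and 1 ICC array lay just below the highest Control array. It differed by 0.20 ± 0.088 in ICC against Control (limma, adjusted p 0.644) and by 0.23 ± 0.088 in CA against Control (adjusted p 0.996). Its signal was below the array median, and its second probe set, at 4.40 log2, differed by 0.019 and 0.011. GSTM2 and GSTM4, of the same class and similar in sequence, differed by 0.018 and -0.14 in ICC against Control and by -0.013 and 0.014 in CA against Control.

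By the probe sets used, the membrane-bound transferases MGST1 and MGST2 lay lower in both treatments in all same-numbered pairs. MGST1 was at 12.31, 12.49 and 12.55 log2 in ICC, at 12.31, 12.23 and 12.55 in CA and at 12.56, 12.51 and 12.65 in Control. MGST2, which can also make leukotriene C, was at 9.46, 9.56 and 9.65 in ICC, at 9.51, 9.31 and 9.71 in CA and at 9.70, 9.59 and 9.84 in Control. In both genes the array numbered 3 was the highest of each group, and it was the 1 array of each treatment that overlapped Control. MGST1 differed by -0.12 ± 0.097 in ICC against Control and by -0.21 ± 0.097 in CA against Control (limma, adjusted p 0.776 and 0.996). MGST2 differed by -0.16 ± 0.11 and -0.20 ± 0.11 (limma, adjusted p 0.741 and 0.996), and by -0.10 in CA against Control without CA replicate 2. The other probe sets of MGST1 ran from -0.10 to 0.055 in ICC and from -0.16 to -0.043 in CA, and the mean over its probe sets differed by -0.11 in CA. With the replicate block the SE of both in CA against Control became 0.075 and 0.077, and the adjusted p was 0.501 and 0.524. MGST3, of the same family, differed by -0.059 and -0.039.

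Lower in 3 of 3 pairs were 8 of the 37 genes in ICC against Control (12.2% of all genes) and 9 in CA against Control (13.9%). UGT1A6, MGST1, MGST2 and ABCC1 were in both counts. In ICC against CA 6 genes were higher (15.5%) and 3 lower (8.77%) in all pairs, and the arrays did not overlap in 2, ABCC12 and GSTP1, both higher (4.11%). Higher in 3 of 3 pairs were 6 genes in ICC against Control (21.1%) and 4 in CA against Control (13.8%), with GSTM3, CES2 and ABCC12 in both. Among the other glutathione transferases GSTO1 was at 11.996, 11.79 and 11.65 log2 in ICC, at 11.81, 11.70 and 11.69 in CA and at 11.74, 11.72 and 11.70 in Control, with the widest spread in ICC. GSTO1 and GSTO2, which reduce dehydroascorbate, differed from Control by 0.091 and -0.040 in ICC and by 0.014 and -0.11 in CA. GSTA4, which acts on the lipid peroxidation product hydroxynonenal, differed by -0.064 in ICC and -0.11 in CA, and GSTK1, of mitochondria and peroxisomes, by -0.030 and -0.088.

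**Figure D2:**
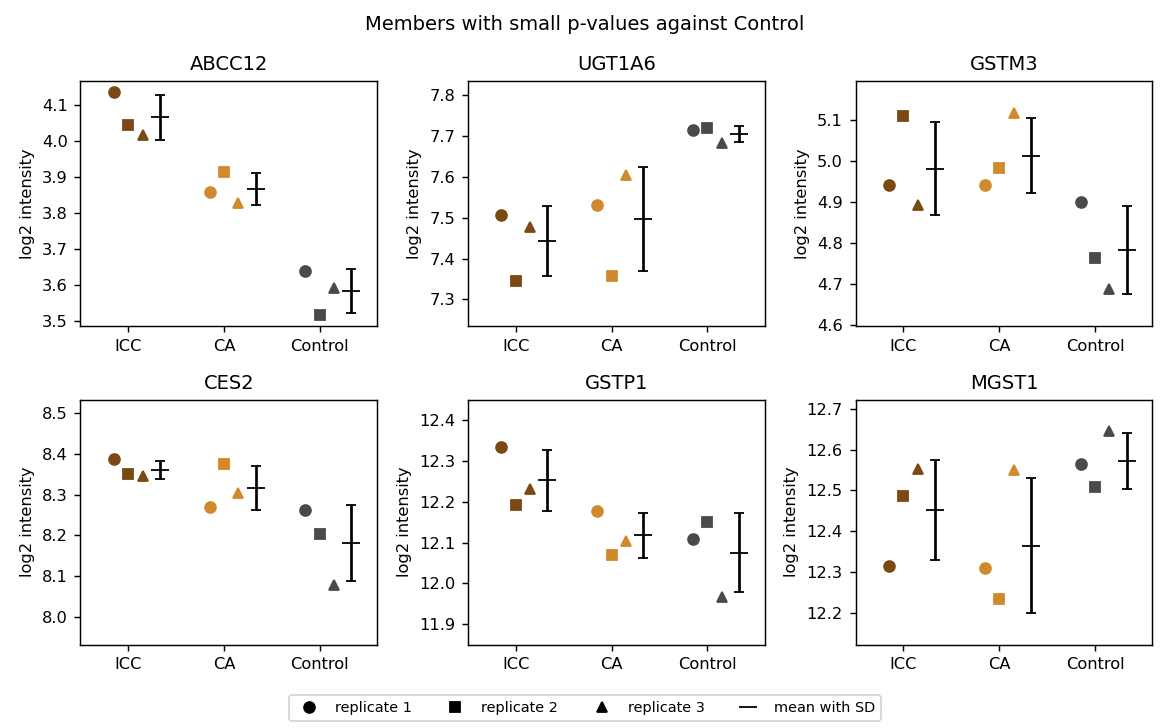
Log2 intensity of ABCC12, UGT1A6, GSTM3, CES2, GSTP1 and MGST1 on each of 3 ICC, 3 CA and 3 Control arrays, with the replicate number as symbol and the mean with SD as bar. The y axes differ and do not start at 0, and the arrays of ABCC12 form 3 separate groups, with means of 4.07 in ICC, 3.87 in CA and 3.58 in Control.

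Of the enzymes that attach acetyl and methyl groups or supply sulfate, all 6 were measured, and none had an unadjusted p under 0.05 in ICC against Control (7.73% of all genes), CA against Control (4.47%) or ICC against CA (2.69%). The differences from Control ran from -0.15 to 0.067 log2 in ICC and from -0.12 to 0.074 in CA. NAT1, an arylamine acetyltransferase, lay lowest in both, at -0.15 ± 0.12 in ICC and -0.12 ± 0.12 in CA. NAT2, the other acetyltransferase, was at 4.76, 4.91 and 4.84 log2 in ICC, at 4.62, 4.67 and 4.88 in CA and at 4.94, 4.72 and 4.68 in Control, and the groups overlapped throughout. TPMT, which methylates thiopurine drugs, differed by -0.054 and -0.085, and PAPSS1, which makes the sulfate donor, by -0.029 and 0.034.

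NNMT, which methylates nicotinamide, varied more than any of the other 36 genes, by 1.31 log2 over the 9 arrays. It was at 10.42, 10.72 and 10.36 log2 in ICC, at 10.33, 11.22 and 9.91 in CA and at 10.96, 10.42 and 9.99 in Control. The extremes of both CA and Control enclosed all ICC arrays, and the 95% interval of its difference ran from -0.64 to 0.73 in ICC against Control and from -0.66 to 0.71 in CA against Control, the widest among the 37.

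The epoxide hydrolases, carboxylesterases and POR, the electron donor of microsomal mono-oxygenases of the CYP family, were 5 measured genes. All 5 lay above Control in ICC, from 0.081 to 0.18 log2, where 60.2% of all genes did. In CA 4 of 5 lay above Control, with differences from -0.058 to 0.13, where 51.4% of all genes did. CES2, the main carboxylesterase of the intestine, which hydrolyses ester drugs, was at 8.39, 8.35 and 8.34 log2 in ICC, at 8.27, 8.38 and 8.30 in CA and at 8.26, 8.20 and 8.08 in Control. All treated arrays lay above Control, the lowest CA array by 0.0079. The difference was 0.18 ± 0.071 in ICC against Control and 0.13 ± 0.071 in CA against Control (limma, adjusted p 0.630 and 0.996). Of the other 2 probe sets of CES2, the dimmer gave 0.21 in ICC and 0.13 in CA. It shares with the probe set used a type (suffix _x_at) that can also match other transcripts. The other, without that suffix, gave 0.11 in ICC and -0.00033 in CA, and its CA and Control arrays overlapped.

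POR was at 9.26, 9.00 and 9.32 log2 in ICC, at 9.11, 8.85 and 9.10 in CA and at 9.23, 8.99 and 9.01 in Control. Within each replicate number ICC stood above CA, by 0.15, 0.14 and 0.21, while the groups overlapped because the array numbered 2 was the lowest of each. The difference of ICC against CA was 0.17 ± 0.11 (limma, adjusted p 1.00). The block narrowed its SE to 0.076, for an adjusted p of 0.810. Single arrays moved the difference, to 0.087 without CA replicate 2, to 0.11 without ICC replicate 3 and to 0.27 without ICC replicate 2. EPHX1, the microsomal epoxide hydrolase, was at 10.97, 10.79 and 11.04 log2 in ICC, at 10.89, 10.83 and 10.85 in CA and at 10.87, 10.85 and 10.84 in Control, with overlap between all groups. It differed from Control by 0.081 in ICC and 0.0017 in CA. EPHX2, the soluble form, was dim, at 4.10, 3.94 and 3.94 in ICC, at 4.09, 4.07 and 3.90 in CA and at 3.94, 3.86 and 3.92 in Control. CES1, the carboxylesterase typical of liver, averaged 4.21 in ICC, 4.18 in CA and 4.10 in Control, near the lower quartile.

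Among the 8 ABC transporters ABCC12, whose substrates are little known, gave the largest difference. It was at 4.14, 4.05 and 4.02 log2 in ICC, at 3.86, 3.92 and 3.83 in CA and at 3.64, 3.52 and 3.59 in Control. The 3 groups were fully apart from each other, with CA between ICC and Control. It differed by 0.48 ± 0.068 in ICC against Control (1.40-fold, limma, adjusted p 0.539, with the replicate block 0.239), by 0.28 ± 0.068 in CA against Control (1.22-fold, adjusted p 0.996, with the block 0.399) and by 0.20 ± 0.068 in ICC against CA (1.15-fold, adjusted p 1.00), each in 3 of 3 pairs. Group accounted for 94.8% of its sum of squares over the 9 arrays. The signal lay below the lower quartile of the arrays, and a second probe set of the gene, at a mean of 3.70 log2, did not show the pattern. That probe set was at 3.77, 3.67 and 3.63 log2 in ICC, at 3.70, 3.70 and 3.83 in CA and at 3.67, 3.75 and 3.54 in Control, and differed by 0.038, 0.087 and -0.049 in the 3 comparisons.

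ABCC1, an exporter of glutathione conjugates, was at 10.06, 10.002 and 10.13 log2 in ICC, at 10.01, 9.92 and 10.15 in CA and at 10.32, 10.03 and 10.24 in Control. It stood below Control in all pairs, by -0.26, -0.029 and -0.12 in ICC and by -0.31, -0.11 and -0.092 in CA, and the groups overlapped. The means differed by -0.13 ± 0.092 and -0.17 ± 0.092 (limma, adjusted p 0.741 and 0.996), and a second probe set gave -0.22 and -0.24. Without Control replicate 1 the difference in CA was -0.11. ABCC2, which exports glucuronides across the apical membrane, was dim, at 3.96, 3.96 and 4.04 in ICC, at 3.89, 3.96 and 3.94 in CA and at 3.82, 3.96 and 3.78 in Control, with the same value on all 3 arrays numbered 2. ABCC3, the exporter of glucuronides on the basolateral side, was at 11.24, 11.36 and 11.32 in ICC, at 11.11, 11.25 and 11.36 in CA and at 11.23, 11.24 and 11.44 in Control. Its groups overlapped, and it differed by 0.0034 in ICC and -0.063 in CA. ABCC5, an exporter of cyclic nucleotides, differed by 0.058 and -0.034 by its brightest probe set.

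ABCG2, the breast cancer resistance protein, which exports sulfate conjugates and many drugs, was at 9.37, 9.62 and 9.82 log2 in ICC, at 9.48, 9.41 and 9.99 in CA and at 9.63, 9.70 and 9.97 in Control. The array numbered 3 was the highest of each group, and the groups overlapped. ICC stood below Control in all pairs, by -0.26, -0.079 and -0.14, and CA in 2 of 3. The means differed by -0.16 ± 0.16 in ICC and -0.14 ± 0.16 in CA, and with the replicate block the SE was 0.083 (limma, adjusted p 0.455 and 0.676). SLCO4A1, an uptake carrier of organic anions and the 1 measured gene among the listed carriers, was at 10.32, 9.98 and 10.44 in ICC, at 10.26, 9.70 and 10.23 in CA and at 10.30, 10.09 and 10.28 in Control. It stood higher in ICC than in CA in all pairs, by 0.059, 0.28 and 0.20, a difference of 0.18 ± 0.16 (limma, adjusted p 1.00). The block narrowed its SE to 0.083, for an adjusted p of 0.810.

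Several genes had more than 1 probe set, and the choice of the brightest bears on the transporters. Of 34 other probe sets of the measured genes, 3 had an unadjusted p under 0.05 and lay lower in ICC against Control (3.62% of 41091 probe sets tested singly), 1 lay higher (4.83%), in CA against Control 3 lay lower (2.5%), and in ICC against CA 1 lay higher (1.82%). Those of ABCC4, ABCC5 and ABCB1 were singled out after their values were seen. ABCC4 exports cyclic nucleotides and conjugated steroids, and its brightest probe set differed by -0.058 in ICC and -0.12 in CA. A second one was at 8.82, 8.89 and 8.88 log2 in ICC, at 8.67, 8.87 and 9.06 in CA and at 9.07, 9.19 and 9.22 in Control. Another was at 7.88, 7.92 and 7.85 in ICC, at 7.84, 8.05 and 8.13 in CA and at 8.19, 8.22 and 8.18 in Control. In both, all treated arrays lay below all Control arrays. They differed by -0.30 ± 0.097 and -0.31 ± 0.082 in ICC against Control (limma over single probe sets, adjusted p 0.508 and 0.431) and by -0.29 ± 0.097 and -0.19 ± 0.082 in CA against Control (adjusted p 0.997 each), while the remaining, dim one gave 0.090 and 0.0027.

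A second probe set of ABCC5 was at 5.69, 5.48 and 5.85 log2 in ICC, at 6.13, 5.77 and 5.82 in CA and at 6.18, 5.805 and 5.98 in Control, with overlap between ICC and both other groups. It differed by -0.31 ± 0.13 in ICC against Control and by -0.083 ± 0.13 in CA against Control (limma over single probe sets, adjusted p 0.566 and 1.00), where the brightest probe set had 0.058 and -0.034.

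ABCB1 encodes P-glycoprotein, the multidrug efflux pump. Its brighter probe set differed by -0.024 ± 0.11 in ICC and 0.082 ± 0.11 in CA. The dimmer one, with a mean of 3.91 log2, was at 3.999, 3.87 and 3.91 in ICC, at 3.75, 3.65 and 3.75 in CA and at 4.15, 4.002 and 4.09 in Control. All CA arrays lay below all ICC and Control arrays. It differed by -0.36 ± 0.073 in CA against Control (limma over single probe sets, adjusted p 0.997, with the replicate block 0.273) and by -0.16 ± 0.073 in ICC against Control (with the block, adjusted p 0.352). The 2 probe sets of this gene thus disagreed, and both were below the array median. In all, the probe sets of a gene had the same sign in 10 of 19 genes with several in ICC against Control, in 7 in CA against Control and in 6 in ICC against CA. The share among all genes with several probe sets was not computed, so these counts cannot be set against the rest of the array.

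**Figure D3:**
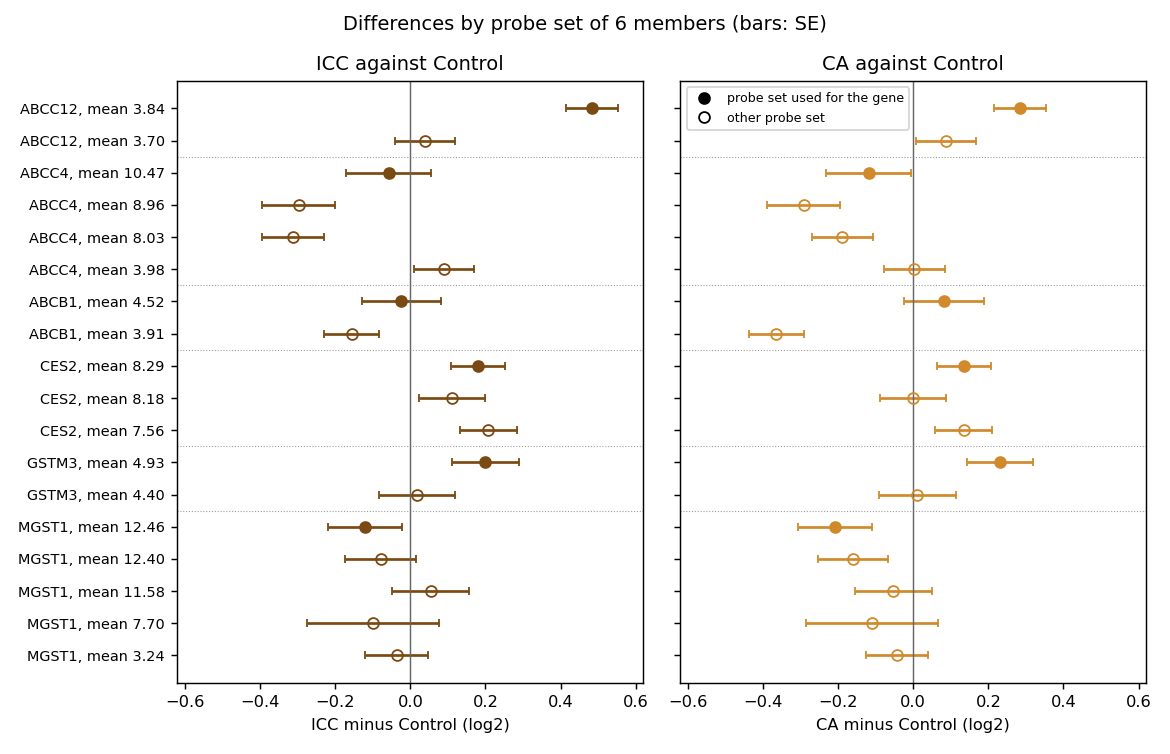
Differences from untreated cells on the log2 scale for each probe set of ABCC12, ABCC4, ABCB1, CES2, GSTM3 and MGST1, ICC minus Control on the left and CA minus Control on the right, with bars for the SE and the mean log2 over 9 arrays beside each name. Filled points are the probe sets used for the gene. The second ABCC12 probe set lies at 0.038 in ICC against 0.48 for the first.

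In many of these genes, as in most of all genes, levels differed more between replicate numbers than between groups. The replicate number took more of the sum of squares over the 9 arrays than the group in 25 of 37 genes (67.6%, where 58.5% of all genes did) and over 50% of it in 14 of 37 (37.8%, where 28.9% did). Group took over 50% in 7 of 37 (18.9%, where 12.8% did), namely UGT1A6, UGT2A3, GSTM3, GSTP1, CES2, ABCC2 and ABCC12. What the number marks is not given in the labels. The examples that follow were chosen after their values were seen. GSTZ1, an enzyme of tyrosine breakdown, was at 7.43, 7.38 and 7.21 log2 in ICC, at 7.42, 7.40 and 7.19 in CA and at 7.42, 7.41 and 7.20 in Control. The 3 arrays numbered 3 lay below all others, the replicate number took 99.2% of the sum of squares, and the treated means differed from Control by -0.0016 and -0.0041.

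PAPSS2, the other enzyme that makes the sulfate donor, was at 10.34, 10.55 and 10.65 log2 in ICC, at 10.32, 10.55 and 10.69 in CA and at 10.12, 10.55 and 10.67 in Control. The arrays numbered 1 were the lowest, those numbered 2 were exactly equal in the 3 groups, and the number took 89.7% of the sum of squares. For UGDH, ABCC4 and ABCG2 that share was 84.8%, 81.9% and 76.8%. Each group held 1 array of each number.

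**Figure D4:**
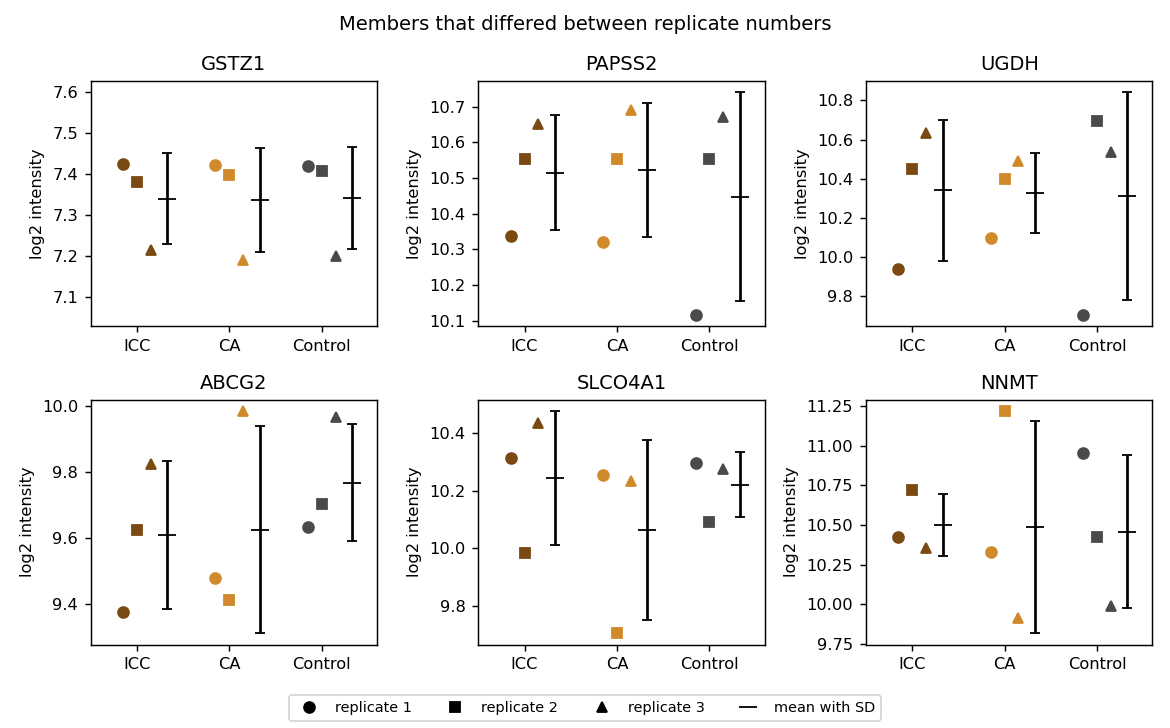
Log2 intensity of GSTZ1, PAPSS2, UGDH, ABCG2, SLCO4A1 and NNMT on each of 3 ICC, 3 CA and 3 Control arrays, with the replicate number as symbol and the mean with SD as bar, on y axes that differ and do not start at 0. In GSTZ1 the array numbered 3 is lowest in every group, at 7.21 in ICC, 7.19 in CA and 7.20 in Control.

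Other genes of the same pathways gave the same count of calls. Of 124 further genes in 5 lists (glucuronidation, glutathione, other conjugation and hydrolysis, transport, and regulators) 99 were measured, and limma called 0 in each comparison, with or without the replicate block. Before adjustment, a p under 0.05 was found for 5 higher (5.83% of all genes) and 2 lower (1.9%) in ICC against Control, for 3 higher (2.55%) and 3 lower (1.91%) in CA against Control, and for 1 higher (2.19%) in ICC against CA. With the block there were 7 higher (8.41%) and 5 lower (3.99%) in ICC against Control, 5 higher (4.04%) and 9 lower (4.5%) in CA against Control, and 4 higher (4.63%) in ICC against CA. Their median was 0.044 log2 in ICC against Control and -0.014 in CA against Control. In the glucuronidation list, with 9 measured of 20, SLC35D1 lay lowest relative to its spread. It carries UDP-glucuronic acid into the endoplasmic reticulum, where the glucuronosyltransferases act, and differed by -0.37 ± 0.12 in ICC and -0.30 ± 0.12 in CA (limma, adjusted p 0.614 and 0.996).

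In the glutathione list, with 21 measured of 23, CHAC2, which degrades glutathione, differed by 0.31 ± 0.11 in ICC and 0.25 ± 0.11 in CA (limma, adjusted p 0.614 and 0.996). In the list of other conjugation and hydrolysis, with 26 measured of 30, the sulfotransferase SULT1B1, known from the intestine, had the smallest p. It differed by 0.43 ± 0.094 in ICC and 0.38 ± 0.094 in CA (limma, adjusted p 0.614 and 0.996), and its mean signal of 5.26 log2 lay below the array median. SULT1E1, the oestrogen sulfotransferase, was dim and differed by -0.19 ± 0.067 in ICC and -0.17 ± 0.067 in CA (limma, adjusted p 0.614 and 0.996). SULT2B1, which sulfates cholesterol, was higher in ICC than in CA by 0.31 ± 0.095 (limma, adjusted p 1.00, with the replicate block 0.563). In the transport list, with 30 measured of 35, the prostaglandin carrier SLCO2A1 differed from Control by 0.39 ± 0.12 in ICC and 0.29 ± 0.12 in CA (limma, adjusted p 0.614 and 0.996). Its mean signal of 4.72 log2 lay below the array median. In CA the smallest p of this list was that of SLCO1B1, at a mean of 4.79 log2. It differed by -0.11 ± 0.084 in ICC and -0.26 ± 0.084 in CA (limma, adjusted p 0.762 and 0.996). Of the 13 measured regulators of 16, none had an unadjusted p under 0.05 in any of the 3 comparisons (7.73%, 4.47% and 2.69% of all genes). With the replicate block there was 1 higher (8.41% of all genes) in ICC against Control and 1 higher (4.04%) and 1 lower (4.5%) in CA against Control. In ICC against CA 2 were then higher (4.63%).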

How the data were processed

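Total RNA of HT29 cells was labelled with biotin and hybridised to Affymetrix HG-U133 Plus 2.0 arrays, per the labels' protocols. RMA produced the deposited intensity values, per the submitters' processing notes. GeneSpring GX is named in the series' design. Tool versions: not given in the sources used here. Values are linear, with array medians from 43.8 to 46.6, so log2 was taken here. Each of 19775 genes was read from its brightest single-symbol probe set over the 9 arrays. Of 54675 probe sets, 62 controls, 1801 with several symbols and 11721 with none were left out.

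Differences were tested over all genes with limma 3.58.1 in R 4.3.3, with group as the only term, and p-values were adjusted by Benjamini and Hochberg. The threshold was 0.05. Each SE is limma's moderated one. Same-numbered arrays of different groups resembled each other: deviations from group means correlated between 0.327 and 0.518 in 9 of 9 such pairs and between -0.436 and 0.0839 otherwise, so the number was also fitted as a block. For 3 arrays against 3, exact permutation reaches 0.1 at best. The number of arrays limits the precision. Alternatives were quantile normalization again, median centring, other probe set choices, a filter on genes below the array median, fewer arrays and fewer groups.

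The 37 measured genes are all named. Values by array are given for the 6 with the smallest p against Control and the 4 in ICC against CA, with or without the block, and for the 5 brightest and 5 dimmest. UGDH, NNMT, ABCG2, GSTZ1 and PAPSS2 were added after their values were seen. Of further genes, at most 4 a list are named, by smallest p. Members and lists were chosen with earlier results of these data known. Promoters came from RefSeq (GRCh38.p14), of which 25 genes matched. Plots used matplotlib 3.10.9 (Python 3.11.15).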

Additional observations from a re-analysis of the deposited data

How the results depend on the processing

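The count of 0 past the threshold among the conjugation and transport genes held in each comparison under every alternative that gives a count. Counts at an unadjusted p under 0.05 moved. In ICC against Control the 5 became 3 after quantile normalization again, with or without the replicate block, 2 after centring on array medians, 3 without genes below the array median (26 of the 37 left), 3 with only the 2 groups compared, and 3 with the replicate block and without replicate 3, and ranged from 2 to 6 when 1 array was left out. In CA against Control the 3 became 6 with the replicate block, also after quantile normalization again, 1 without genes below the array median and 1 with the replicate block and without replicate 2, and ranged from 2 to 6 when 1 array was left out. In ICC against CA the 1 became 2 with the replicate block, 0 when all probe sets of a gene were averaged, 0 without genes below the array median, and 0 with the replicate block and without replicate 1 or replicate 3, and ranged from 0 to 2 when 1 array was left out. The cause of these moves was not tested, except that fewer genes were tested without genes below the array median. Among the 37 genes the block changed no call at the adjusted threshold. Of all genes it called 3 in CA against Control and 1 in ICC against CA, where the fit without it called 0.

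The 13 differences with an unadjusted p under 0.05, with or without the block, were recomputed, and in 174 cases the alternative gave another estimate. The direction was the same in 173 of these. The 13 were picked for a small p on these same arrays, so few changes of sign could occur and the count is no support for them. Sizes moved, and GSTM3 in CA against Control went from 0.23 to 0.011 with its next brightest probe set. Of all 37 genes, 10 changed sign in ICC against CA with the replicate block and without replicate 3. The exception in direction among the 13 was ABCC12 in ICC against CA, at -0.049 with its next brightest probe set, an alternative chosen after seeing the data. That probe set lies below the lower quartile, as does the one used, and signal over background limits both.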
